A study of Mus musculus with 4 samples.

Results

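A set of 9 genes that mark megakaryocytes and platelets were followed through 4 stages of red cell maturation in the mouse fetal liver. They are Pf4, Ppbp, Itga2b, Itgb3, Gp1bb, Gp9, Gp5, Vwf and Fli1. They were taken by symbol from a list of 9 names, all 9 of which are among the 19564 symbols in the deposited values, and each reached 1 RPKM in at least 1 library. RPKM divides the reads of a gene by its length and by the library's depth. The cells came from fetal livers of embryonic day 14.5, were stained for the erythroid antigen TER119 and for CD71, the transferrin receptor, and were sorted without culture. R2 holds proerythroblasts and early basophilic erythroblasts. R3 holds early and late basophilic erythroblasts. Polychromatophilic and orthochromatophilic erythroblasts make up most of R4, and R5 holds late orthochromatophilic erythroblasts and reticulocytes, young red cells without a nucleus. The labels give no genotype or treatment. The sort used no marker of the megakaryocyte lineage. With 1 library per population, differences have no replicate check and no test was made.

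Megakaryocytes are the large polyploid cells that shed platelets, and they share a progenitor with red cells in the fetal liver as in bone marrow. Platelets are anucleate fragments that stop bleeding. Their receptor for von Willebrand factor is the glycoprotein Ib-IX-V complex, their receptor for fibrinogen is the integrin alphaIIb-beta3, and their alpha granules hold chemokines and von Willebrand factor. FLI1 is an ETS-family transcription factor that acts at the promoters of many of these genes together with GATA1, and it opposes the erythroid factor KLF1 in the choice between both lineages.

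The promoter-side sequences of 4 of these genes are shown because GATA and ETS factors are the textbook regulators of the group and because Pf4, Ppbp and Itga2b were highest in R5 and Gp9 in R3, as described below. Gp1bb was also highest in R5, and its sequence is not shown. RefSeq's table for GRCm38.p6 held a start site for 6 of the 9 genes, Pf4, Ppbp, Itga2b, Gp1bb, Gp9 and Gp5. Each line gives the 250 bases before the annotated start, 5′ to 3′ on the strand of the gene. Capitals mark every GATAA or TTATC (a form of the GATA site) and every GGAAG or CTTCC (a form of the ETS site). Other forms of these sites were not searched. GATA core and ETS core below mean these letters alone.
Pf4, chr5:90772185-90772434, plus strand: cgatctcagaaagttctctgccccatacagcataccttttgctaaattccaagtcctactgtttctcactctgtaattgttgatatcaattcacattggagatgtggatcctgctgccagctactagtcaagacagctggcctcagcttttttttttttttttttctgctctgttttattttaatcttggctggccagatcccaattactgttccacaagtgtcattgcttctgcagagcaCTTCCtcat
Ppbp, chr5:90768268-90768517, plus strand: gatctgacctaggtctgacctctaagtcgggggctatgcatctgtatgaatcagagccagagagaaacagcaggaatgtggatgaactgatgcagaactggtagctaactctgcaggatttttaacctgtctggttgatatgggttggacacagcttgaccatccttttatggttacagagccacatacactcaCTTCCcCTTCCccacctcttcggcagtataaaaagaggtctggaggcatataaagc
Itga2b, chr11:102469884-102470133, minus strand: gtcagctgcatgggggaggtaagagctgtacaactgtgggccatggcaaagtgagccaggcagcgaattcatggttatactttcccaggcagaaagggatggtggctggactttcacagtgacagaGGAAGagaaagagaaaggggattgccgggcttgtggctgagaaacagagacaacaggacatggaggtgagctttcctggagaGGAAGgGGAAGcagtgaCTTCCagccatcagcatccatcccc
Gp9, chr6:87777820-87778069, plus strand: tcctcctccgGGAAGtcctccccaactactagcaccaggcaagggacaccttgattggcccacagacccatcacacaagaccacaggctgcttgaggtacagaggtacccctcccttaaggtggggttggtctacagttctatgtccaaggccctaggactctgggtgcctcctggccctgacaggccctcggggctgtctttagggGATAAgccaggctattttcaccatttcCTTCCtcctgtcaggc
An ETS core was found in all 6 windows, against 64.1% of the 32851 windows of the same length in the table. A GATA core was found in 2 of the 6, Gp9 with 1 and Gp5 with 2, against 22.6% of all windows. Itga2b, the alphaIIb integrin gene, had 4 ETS cores, 1 of them on the other strand. Pf4 had 1 ETS core, which began 9 bases before its start. No GATA core overlapped an ETS core in these windows. These are letter matches, not mapped sites, and the coordinates are of GRCm38 while the submitters' notes name mm9.

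The libraries carried the markers their labels call for. Slc4a1, the band 3 anion exchanger of the red cell, stood at 163.66, 2342.02, 2666.80 and 1733.99 RPKM in R2, R3, R4 and R5, and Tfrc, which encodes CD71, was highest in R3. Step sizes in the values implied 23000000, 25600000, 27400000 and 20700000 reads. Globin genes held 5.52% of the summed RPKM in R2 and between 59.4% and 81.9% in the other libraries, and RPKM is a relative measure. Granulocyte markers were high in R2, as given with Fli1 below. Among the 9942 genes that reached 1 RPKM in a library, the median log2 ratio of RPKM + 1 was -1.65 for R5 against R2, -1.09 for R3 against R2, -0.77 for R4 against R3 and 0.27 for R5 against R4. Ratios of the 9 genes are read against these medians and were also taken after scaling each library by the median of its gene ratios, called median scaling below. In these bulk libraries fewer cells of a type and less RNA per cell cannot be told apart.

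The 9 genes were low to moderate in level and did not share 1 profile. As deposited, Pf4, Ppbp, Itga2b, Itgb3, Gp1bb and Gp5 were lowest in R4 and at least 2.74-fold higher in R5 by the ratio of RPKM. Gp9 peaked in R3 as deposited, and Fli1 was high in R2 and low in the other 3 libraries. Vwf was lowest in R4 as well and 2.10-fold higher in R5. In sum over the 9 genes the libraries held 53.56, 47.03, 25.05 and 74.60 RPKM (R2 to R5), and Pf4 made up between 20.1% of that sum in R2 and 42.4% in R5. Without Pf4 the sums were 42.81, 36.34, 18.01 and 42.97 RPKM, so R2 and R5 were then close.

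As deposited, 8 of the 9 were lowest in R4, as were 73.2% of the 9942 genes, and all 9 were higher in R5 than in R4, as were 76.2%. R5 was the highest library for 4 of the 9 (Pf4, Ppbp, Itga2b and Gp1bb), against 1.82% of the genes. The R4 minimum depends on the scaling. With median scaling 1 of the 9 was lowest in R4, against 3709 of the 9942 genes, while all 9 were still higher in R5 than in R4, against 57.2%, and R5 was the highest library for 7, against 8.44%. Levels and folds of single genes below are as deposited unless a scaling is named. Their counting intervals do not cover the choice of scaling.

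**Figure D1:**
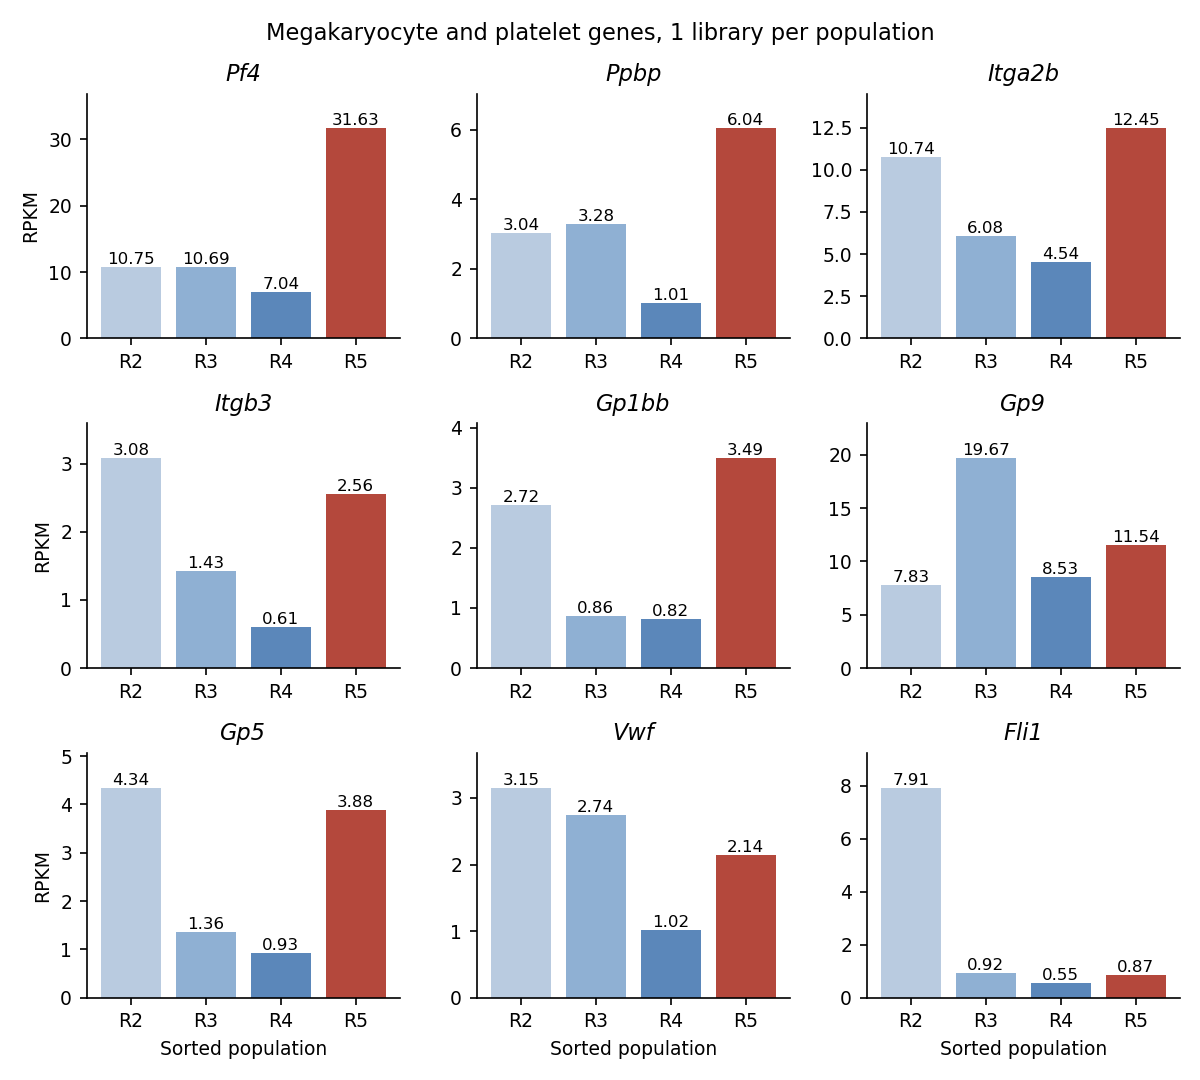
RPKM of each of the 9 genes (vertical axes, linear from 0, a separate scale per gene) in the R2, R3, R4 and R5 libraries (horizontal axes), with the deposited value above each bar and 1 library per bar. R5 stands above R4 in all 9 panels, Gp9 is tallest in R3 and Fli1 in R2.

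The alpha-granule chemokine genes were highest in R5. Pf4 encodes platelet factor 4, a heparin-binding chemokine stored in alpha granules. Its levels were 10.75 (R2), 10.69 (R3), 7.04 (R4) and 31.63 RPKM (R5). R5 stood apart from the other 3, and R2 and R3 did not differ beyond counting error, with a fold of R3 over R2 of 0.994 (95% exact counting interval 0.790 to 1.25). The fold of R5 over R4 was 4.49, with an interval of 3.62 to 5.56. These intervals rest on reads estimated from RPKM and transcript length, 385 reads in R5 and 114 in R4 for Pf4, and cover counting error only. Pf4 ranked 743rd from the top of all symbols in R5 and 5140th in R2.

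Ppbp encodes pro-platelet basic protein, the precursor of a neutrophil-attracting chemokine, and is the nearest annotated gene to Pf4. Its levels were 3.04, 3.28, 1.01 and 6.04 RPKM in R2, R3, R4 and R5. The order was the same as for Pf4 but for R2 and R3, which again did not differ beyond counting error (fold of R3 over R2 1.08, interval 0.782 to 1.47). R5 over R4 was 5.98-fold by the plain ratio of RPKM, with a wide interval of 4.02 to 9.23 because R4 rested on about 30 reads. The RPKM of Pf4 was 3.54 times that of Ppbp in R2, 3.26 times in R3, 6.97 times in R4 and 5.24 times in R5. The flanking chemokine genes Cxcl5 and Cxcl3 stayed at or below 0.11 RPKM in every library.

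Both chains of the fibrinogen receptor were, as deposited, lowest in R4 and higher in R5. Itga2b encodes the alphaIIb chain, which is also carried by early blood progenitors, and stood at 10.74 (R2), 6.08 (R3), 4.54 (R4) and 12.45 RPKM (R5). As deposited, R5 and R2 were close, with a fold of 1.16 (interval 1.05 to 1.28), and R3 and R4 lay below both. R5 over R4 was 2.74-fold (2.44 to 3.08). Itgb3 encodes the beta3 chain, which pairs with alphaIIb on platelets and with alphav on other cells, and its levels were 3.08, 1.43, 0.61 and 2.56 RPKM. It was therefore highest in R2 as deposited, with R5 at 0.831 of R2 (0.715 to 0.966), and R5 over R4 was 4.20-fold (3.32 to 5.32). After median scaling both chains were highest in R5, with Itgb3 at 1.42, 1.21, 1.10 and 3.57 from R2 to R5. Itga2b then stood at 4.94, 5.16, 8.18 and 17.39, so R2 was its lowest library and R5 was well above R2. The alpha chain gene was above the beta chain gene in each library, at a ratio of 3.49, 4.25, 7.44 and 4.86 from R2 to R5. Itgav, the gene of the other partner of beta3, was at 0.84, 0.21, 0.10 and 0.31 RPKM, below Itgb3 in each library.

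Subunits of the von Willebrand factor receptor differed in profile. Gp1bb encodes the small beta chain of glycoprotein Ib. It was at 2.72, 0.86, 0.82 and 3.49 RPKM in R2, R3, R4 and R5, with R3 and R4 not differing beyond counting error (fold of R4 over R3 0.953, interval 0.622 to 1.47). Gp5 encodes glycoprotein V, which joins the complex more loosely, and its levels of 4.34, 1.36, 0.93 and 3.88 RPKM were likewise higher in R2 and R5 than in R3 and R4, with R5 and R2 not differing beyond counting error (fold 0.894, interval 0.730 to 1.10). R5 over R4 was 4.26-fold for Gp1bb (3.05 to 6.03) and 4.17-fold for Gp5 (3.08 to 5.75). In the annotation Gp1bb overlaps Septin5, and whether the counting used strand is not given in the sources used here, so reads of the pair cannot be told apart.

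Gp9 encodes glycoprotein IX, which the complex needs to reach the surface, and it differed from the other subunits. Its levels were 7.83 (R2), 19.67 (R3), 8.53 (R4) and 11.54 RPKM (R5). R3 was the highest as deposited, at 2.51-fold of R2 (2.09 to 3.04). R4 and R2 as deposited did not differ beyond counting error, with a fold of R4 over R2 of 1.09 (0.883 to 1.35). Scaling changed this profile. After median scaling Gp9 stood at 3.60, 16.68, 15.37 and 16.11 from R2 to R5. R4 was then above R2, and R3, R4 and R5 were close. The RPKM of Gp9 was 2.88 times that of Gp1bb in R2, 22.9 times in R3, 10.4 times in R4 and 3.31 times in R5. The next gene on its chromosome, Rab43, which encodes a small GTPase, was at 21.16, 52.14, 55.57 and 34.25 RPKM and so was also higher in R3 than in R2; its part in the Gp9 value was not tested. Gp1ba encodes the chain that binds von Willebrand factor, was not among the 9 genes, and stood at 3.24, 1.22, 0.27 and 1.25 RPKM.

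Vwf encodes von Willebrand factor, the plasma protein that ties platelets to damaged vessel walls and is made by megakaryocytes and endothelial cells. It was at 3.15, 2.74, 1.02 and 2.14 RPKM in R2, R3, R4 and R5. R2 and R3 were the higher pair and R4 the lowest as deposited, and R5 was at 0.679 of R2 (0.598 to 0.772). R5 over R4 was 2.10-fold (1.79 to 2.47). After median scaling Vwf stood at 1.45, 2.32, 1.84 and 2.99 from R2 to R5, so R5 was then the highest and R2 the lowest. Endothelial markers are given beside it. The 11 measured ones summed to 80.73, 20.78, 9.21 and 18.54 RPKM over the stages. Most of the R2 sum was Egfl7, at 49.25 RPKM, and Eng, at 18.44 RPKM. These stood at 8.99 and 3.88 RPKM in R3. Kdr, Stab2, Robo4 and Lyve1 were instead slightly higher in R3, at 0.60, 1.58, 0.47 and 0.78 RPKM, than in R2, at 0.50, 1.31, 0.34 and 0.62. Kdr, Robo4 and Lyve1 did not reach 1 RPKM in any library, so these are differences between low values. Of the 11, 10 were higher in R5 than in R4, as were 76.2% of all genes. Cdh5 (VE-cadherin) was at 2.32, 2.32, 0.87 and 1.75 RPKM, and Emcn was listed at 0 in R4 and R5. The part of endothelial cells in the Vwf value was not tested.

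Fli1 was the 1 transcription factor of the set and behaved unlike the rest. Its levels were 7.91 (R2), 0.92 (R3), 0.55 (R4) and 0.87 RPKM (R5). R2 alone was high, and the other 3 libraries lay between 0.55 and 0.92 RPKM. The fold of R3 over R2 was 0.116 (0.0903 to 0.147). R5 over R4 was 1.58-fold (1.07 to 2.36). Klf1, its erythroid antagonist, stood at 254.39, 418.38, 256.71 and 255.37 RPKM, so that the RPKM of Fli1 was 0.0311 of that of Klf1 in R2 and between 0.00214 and 0.00341 of it in the later populations. Ets1 and Erg, which encode other ETS-family factors, were also highest in R2, as were 86.2% of all genes, with Ets1 at 3.28, 0.44, 0.36 and 0.55 RPKM and Erg at 5.70, 0.43, 0.52 and 0.82 RPKM. The 8 measured stem and progenitor markers summed to 274.33, 29.87, 16.04 and 26.45 RPKM, and Kit, the stem cell factor receptor, was at 46.12, 4.20, 2.20 and 3.78 RPKM. The 11 granulocyte markers summed to 6231.59, 439.05, 240.39 and 478.59 RPKM. The part of either in the Fli1 value was not tested.

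The comparison of R5 with R4 asks what separates the reticulocyte-containing population from the late erythroblasts before it, and in it all 9 genes were higher in R5. It shares the R5 library with the comparison of R5 with R2. On the log2 scale of RPKM + 1, 6 of the 9 reached a 2-fold higher level in R5, Pf4 at 2.02, Ppbp at 1.81, Gp5 at 1.34, Gp1bb at 1.30, Itga2b at 1.28 and Itgb3 at 1.14. Over all genes tested 3.97% were that much higher. With a pseudocount of 5 RPKM the count was 1, and with a filter of 5 RPKM it was 3 of the 5 genes left. The share over all genes was not computed for that pseudocount or that filter. None of the 9 was at least 2-fold lower, against 0.604% of all genes. The median of the 9 was 1.28, against 0.27 over all genes. Vwf at 0.64, Gp9 at 0.40 and Fli1 at 0.27 were within 2-fold. The pseudocount lowers these ratios for low genes, and by the plain ratio of RPKM Itgb3 stood at 2.07. The ratio of Pf4 was above those of 99.8% of the genes tested, that of Gp9 above 63.0% and that of Fli1 above 50.3%. With median scaling the same number, 6 of 9, was at least 2-fold higher, against 1.75% of all genes, with a median of 1.12 against 0.07, although Itga2b was then on the limit and Gp9 at 0.06. With globins removed 6 of 9 were again higher, against 2.98% of all genes.

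**Figure D2:**
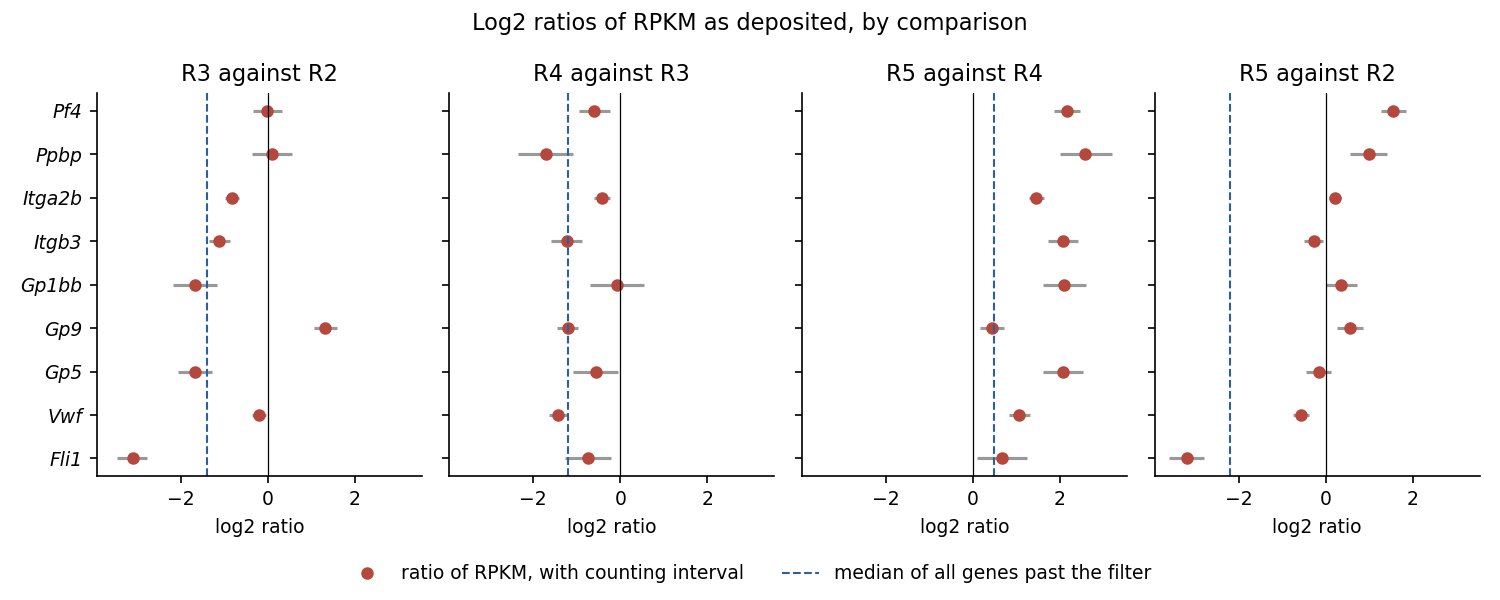
Log2 ratio of RPKM (horizontal axes, no pseudocount) for each of the 9 genes in the 4 comparisons, as points with 95% exact counting intervals from estimated reads. The dashed line is the median of all genes past the filter. In R5 against R4 the points of Pf4, Ppbp, Itga2b, Itgb3, Gp1bb, Gp5 and Vwf lie to the right of it with their whole intervals.

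Marker lists of other cell types also summed to more in R5 than in R4 as deposited. Over all genes the median log2 ratio of plain RPKM was 0.48. The 9 genes summed to 2.98 times as much in R5 as in R4, or 2.39 times without Pf4. The 7 hepatocyte markers summed to 2.17 times as much, with 360.77 RPKM in R5 and 166.31 in R4, and all 7 were higher in R5, where 76.2% of all genes were higher than in R4. Macrophage markers summed to 2.31 times as much, with 69.13 RPKM in R5 and 29.92 in R4, and 9 of 12 were higher, which is near that share. For granulocyte markers the fold was 1.99, with 11 of 11 higher, for endothelial markers 2.01, for stem and progenitor markers 1.65, for mast cell and basophil markers 2.08, for lymphoid markers 2.93 and for mesenchymal and stellate markers 2.34. The last 3 lists summed to between 0.71 and 5.37 RPKM in R5 and R4, and Cd3e was listed at 0 in all 4. Of 9 erythroid markers, 2 were higher in R5 than in R4. The part of other cell types in the R5 values of the platelet genes was not tested.

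**Figure D3:**
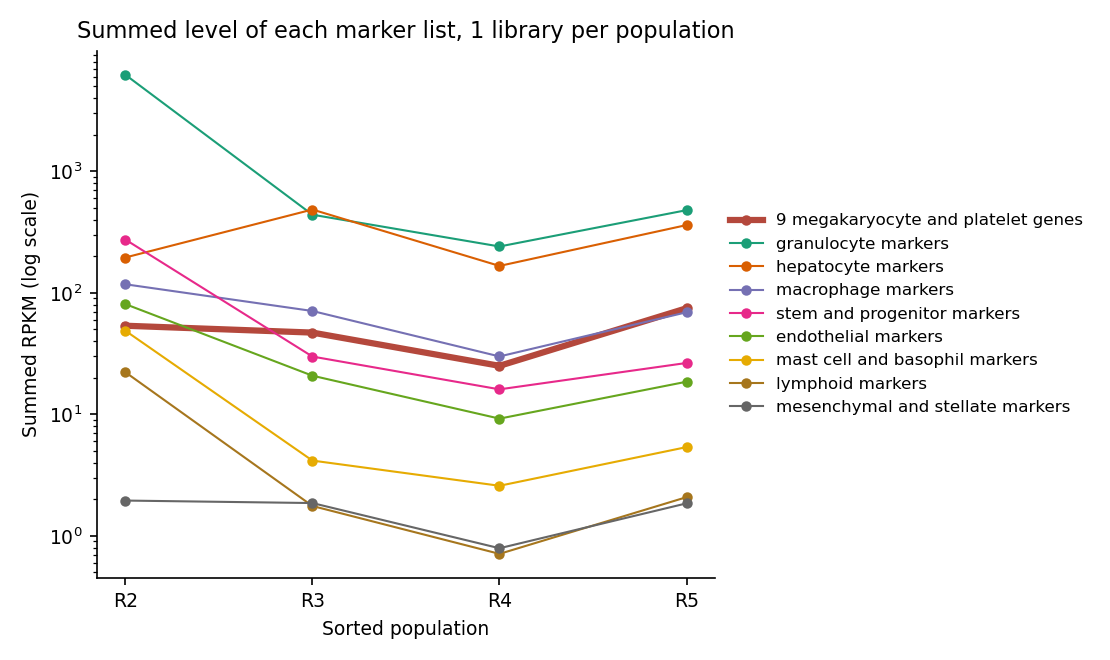
Summed RPKM (vertical axis, log scale) of the 9 megakaryocyte and platelet genes and of 8 marker lists of other cell types in the 4 libraries. As deposited, every line is lowest in R4, and the 9 genes, at 74.60 RPKM, are the 1 sum that is highest in R5. Both statements hold for the deposited values only, since the sums are not drawn with median scaling. With that scaling R5 exceeded R2 by 2-fold or more in all 7 hepatocyte markers and in 5 of 12 macrophage markers. All 11 granulocyte markers then lay below R2 by as much.

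The comparison of R5 with R2 spans the whole course. As deposited, 7 of the 9 genes were within 2-fold in both, while most other genes were lower in R5. Of the 9, 1 was at least 2-fold higher in R5, Pf4 at a log2 ratio of 1.47, and 1 lower, Fli1 at -2.25. Over all genes 2.74% were that much higher and 76.9% that much lower. The median of the 9 was 0.20 against -1.65 over all genes, and 8 of the 9 lay above that median, Fli1 being the exception. Itga2b at 0.20, Gp1bb at 0.27, Gp9 at 0.51 and Ppbp at 0.80 were higher in R5 within 2-fold, and Gp5 at -0.13, Itgb3 at -0.20 and Vwf at -0.40 were lower within 2-fold. Scaling changed this picture. With median scaling 6 of 9 were at least 2-fold higher, against 9.42% of all genes, and Fli1 at -1.07 was lower, against 13.7%. The 3 that were lower within 2-fold then stood on the other side, at 1.10 for Gp5, 0.92 for Itgb3 and 0.70 for Vwf. With the globin genes removed and the rest rescaled to a common sum, 5 of 9 were higher, against 7.35% of all genes, and 1 was lower, against 29.8%.

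**Figure D4:**
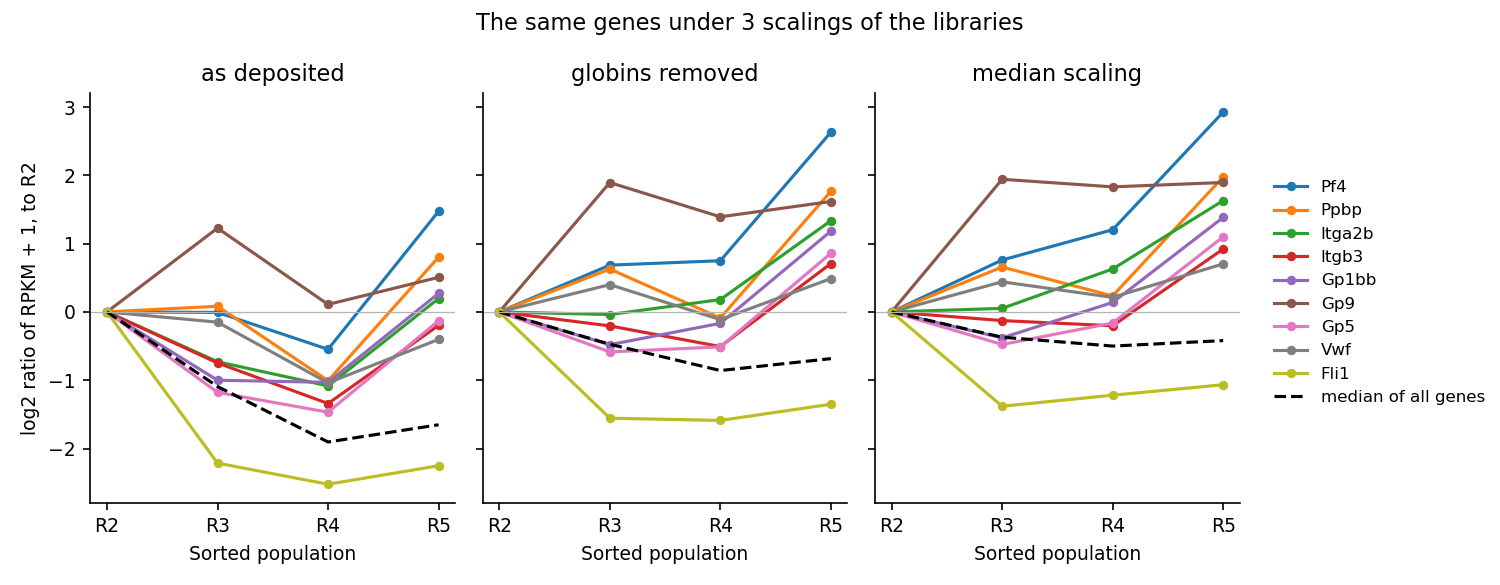
Log2 ratio of RPKM + 1 to R2 (vertical axis) for the 9 genes across the 4 populations, as deposited, with globins removed and with median scaling, with the median of all genes as a dashed line. Fli1 is the 1 gene below that line in R5 in all 3 panels, and every one of the 9 is higher in R5 than in R4 in each panel.

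R3 against R2 covers the step into basophilic erythroblasts. Gp9 was at least 2-fold higher in R3, at a log2 ratio of 1.23, against 3.81% of all genes. Fli1 at -2.21, Gp5 at -1.18 and Gp1bb at -1, on the limit, were at least 2-fold lower, against 55.1% of all genes. Pf4 at -0.01, Ppbp at 0.08 and Vwf at -0.15 were near 0, and the median of the 9 was -0.73 against -1.09. With median scaling Gp9 stood at 1.94 and 1 gene, Fli1 at -1.38, was lower, against 8.38% higher and 18% lower over all genes. With globins removed Gp9 was again the 1 higher gene and Fli1 the 1 lower, against 7.81% and 22.8%. Itga2b stood at 0.05 with median scaling, against -0.73 as deposited.

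R4 against R3 covers the step into late erythroblasts. None of the 9 was at least 2-fold higher, against 0.493% of all genes. Gp9 at -1.12 and Ppbp at -1.09 were lower, against 32.1% of all genes, and the median of the 9 was -0.54 against -0.77. With median scaling none of the 9 was 2-fold higher or lower, against 4.26% and 0.382% of all genes, and the ratios ran between -0.42 for Ppbp and 0.58 for Itga2b. With globins removed it was again none, against 1.98% and 2.83% of all genes.

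Other genes of the platelet program, from 5 lists by role, were mostly lower in R5 than in R2, as most genes were. Among adhesion and agonist receptors, 18 of 28 measured genes reached 1 RPKM. In R5 against R2, 0 of the 18 were higher by 2-fold or more and 10 lower (median -1.23), where 2.74% of all genes were higher and 76.9% lower. With median scaling 2 were higher and 3 lower, against 9.42% and 13.7% of all genes. In R5 against R4, 2 were higher and 1 lower (median 0.60), against 3.97% and 0.604% of all genes. The counts were equal with median scaling, against 1.75% and 2.56%. The 2 were Treml1, which encodes a receptor of platelet alpha granules, at 2.65, 2.22, 1.24 and 4.61 RPKM, and Cd9, a tetraspanin, at 8.56, 1.80, 1.20 and 3.82 RPKM. The lower one was Cd36, a scavenger receptor of platelets and also of erythroid cells, at 0.91, 2.76, 8.22 and 1.75 RPKM. The genes of this list with the highest means were Itgb1, the beta1 integrin, at 56.40, 16.20, 5.73 and 8.93 RPKM, Fcer1g, an immune receptor chain, Cd63, a tetraspanin of granule membranes that had the lowest R5 to R2 ratio among genes with at least 5 RPKM, at -3.30, and the thrombin receptor gene F2r.

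Granule and secreted proteins had 14 of 20 measured genes at 1 RPKM or more, of which 0 were higher by 2-fold or more and 11 lower in R5 against R2 (median -1.67), a share near the 76.9% of all genes. With median scaling 1 was higher and 2 were lower, against 9.42% and 13.7% of all genes. F13a1, the A chain of clotting factor XIII, was at 18.97, 1.61, 0.83 and 1 RPKM. Srgn, which encodes the granule proteoglycan serglycin, was at 115.67, 9.73, 5.23 and 10.70 RPKM, and Tgfb1 at 139.73, 34.07, 15.10 and 27.86 RPKM. Srgn and F13a1 are expressed in myeloid cells as well, and the granulocyte markers were likewise highest in R2; their part in these values was not tested. Thbs1, thrombospondin, had the highest ratio of the list among genes with at least 5 RPKM, at -1.56. In R5 against R4, 1 of 14 was at least 2-fold higher, Clu (clusterin), at 3.29 RPKM in R5 and 1.11 in R4, against 3.97% of all genes. With median scaling 0 of 14 were, against 1.75%.

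Among 22 cytoskeleton and proplatelet genes, all of which reached 1 RPKM, R5 exceeded R2 by 2-fold or more in 1 and lay below it by as much in 18 (median -2.22), a share near the 76.9% of all genes. With median scaling 4 were higher and 5 lower, against 9.42% and 13.7% of all genes. The higher one as deposited was Myl9, a myosin light chain, at 0.83, 2.08, 2.13 and 6.47 RPKM and a log2 ratio of 2.03. Tubb1, the beta-tubulin of the platelet marginal band, was at 2.21, 4.73, 5.34 and 4.85 RPKM. It did not have the R4 trough that Itga2b, Itgb3, Gp1bb and Gp5 had as deposited. Tuba4a, an alpha-tubulin, was at 224.91, 283.52, 207.67 and 165.96 RPKM, and Arpc1b, of an actin-nucleating complex, at 179.70, 19.25, 10.41 and 20.85 RPKM. Flna, filamin A, which anchors glycoprotein Ib to actin, had the lowest ratio among genes of the list with at least 5 RPKM, at 9.98 RPKM in R5 and 89.85 in R2. Fermt3 (kindlin-3) and Tln1 (talin-1), which activate the beta3 integrin, were at 53.90 and 36.06 RPKM in R5, and at 205.07 and 141.71 RPKM in R2. In R5 against R4, 4 of 22 were at least 2-fold higher, Tuba8, Myl9, Zyx and Pdlim1, and 0 lower, against 3.97% and 0.604% of all genes. With median scaling Tuba8 and Myl9 were, with Zyx at 0.82 and Pdlim1 at 0.95, where 1.75% of all genes were that much higher.

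Signalling and eicosanoid genes had 30 of 36 members at 1 RPKM or more, with 0 higher and 24 lower by 2-fold or more in R5 against R2 (median -1.88), a share near the 76.9% of all genes. In R5 against R4 there were 0 in either direction, against 3.97% and 0.604% of all genes. With median scaling the R5 to R2 counts were 2 higher and 8 lower, against 9.42% and 13.7% of all genes. Gnai2, an inhibitory G protein subunit, was at 237.48, 98.32, 42.04 and 58.81 RPKM and had the highest mean of the list, followed by Rgs10, Vav1 and Sh2b3. Ptgs1, the cyclooxygenase of platelets, was at 14.71, 2.40, 1.19 and 2.29 RPKM, and Plcg2 had the lowest R5 to R2 ratio among genes with at least 5 RPKM, at -2.94. Jak2, a kinase of cytokine receptor signalling, had the highest among those genes, at 10.10, 11.26, 8.28 and 5.13 RPKM. Of 29 transcription factors at 1 RPKM or more out of 31, R5 exceeded R2 by 2-fold or more in 1 and lay below it by as much in 18 (median -1.80), against 2.74% and 76.9% of all genes. None was 2-fold higher or lower in R5 against R4, against 3.97% and 0.604%. With median scaling 8 were higher and 8 lower in R5 against R2, against 9.42% and 13.7% of all genes. In R5 against R4, 1 was then lower, against 2.56%. The higher one as deposited was Nfe2, which drives platelet release and globin transcription, at 60.41, 203.92, 257.68 and 216.04 RPKM. Zfpm1 (FOG-1) at 260.22, 354.66, 181.36 and 217.12 RPKM and Lmo2 at 106.85, 159.41, 136.62 and 99.55 RPKM, both used by the erythroid and megakaryocyte programs, stayed high, while Runx1 was at 13.40, 2.69, 1.59 and 2.64 RPKM and Myb at 68.09, 5.52, 3.29 and 4.87 RPKM. With median scaling the R5 to R2 medians of the 5 lists were 0.07 for receptors, -0.53 for granule proteins, -0.71 for cytoskeleton, -0.54 for signalling and -0.61 for transcription factors, against -0.42 over all genes.

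The nearest profiles to Pf4, Ppbp, Itga2b and Fli1, which reached 5 RPKM, were found over the 4 libraries, by the distance between centred log2 values with 7328 other genes compared. The closest to Pf4 were the histone genes Hist1h1b, at 4.47, 4.88, 3.16 and 14.00 RPKM and a distance of 0.145, and Hist1h4h, at a distance of 0.382. The closest to Ppbp were Hist1h4b at 0.167 and Hist1h4d at 0.335, and the closest to Itga2b were C730025P13Rik at 0.260 and Hist1h4a at 0.298. Fli1 was closest to Tnfrsf1b, at 7.77, 0.90, 0.55 and 0.87 RPKM and a distance of 0.0198, and Cd320 at 0.0346. Among themselves, Pf4 and Ppbp were at 0.633 and Ppbp and Itga2b at 0.689, while Pf4 and Fli1 were at 2.65, against a median distance of 2.46 from Pf4 to all genes. In all, 9 genes were closer to Pf4 than Ppbp was, and 29 closer than Itga2b was. The profiles share the same 4 libraries and their depths.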

How the data were processed

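Polyadenylated RNA of 4 sorted fetal liver populations, 1 library each, was sequenced on a Solexa instrument, per the labels' protocols. The authors deposited RPKM, 1 value per gene symbol with 2 decimals, per the file headers. The build was mm9, per the submitters' processing notes, and no source used here names the aligner, counter or annotation. From these values log2 ratios of RPKM + 1 were computed for 4 comparisons, later over earlier population, over the 9942 genes that reached 1 RPKM in a library. A gene was counted at a 2-fold ratio or more. No test was made, since each population had 1 library. Reads were estimated as RPKM times the length of the principal GENCODE M21 transcript divided by the RPKM of 1 read over 1 base. That unit, 43.56, 39.02, 36.47 and 48.25 for R2 to R5, was the smallest non-zero value of 6 genes that take stepped values, and 49 genes were whole reads under it within 0.02 reads over at most 60 bases. Fewer countable bases would widen the counting intervals, which are exact (Clopper-Pearson) at 95%. Median scaling used 2745 genes with at least 5 RPKM in every library, and 8 globin genes were removed for the other rescaling. Of 141 list entries 137 were matched to the files, 5 of them by an alias or synonym, and 85 of 86 marker entries. From each list the 4 highest means and the highest and lowest ratios of R5 against R2 among genes with at least 5 RPKM were named; other list genes were chosen after their values were seen. The 9 genes and the lists were chosen with earlier results of these data known. The 2-fold calls were tested on simulated counts, and median scaling on a library multiplied by a constant. The other steps were not tested in this way. Python 3.11.15, numpy 2.4.6, pandas 2.3.3 and scipy 1.17.1 were used. The nearest profiles to Gp9 and 1 list gene are not reported here.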

Additional observations from a re-analysis of the deposited data

How the results depend on the processing

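No paired analysis was possible because each population had 1 library. The cause of each shift below was not tested, except that the filter of 5 RPKM leaves 5 of the 9 genes. With median scaling the median log2 ratio of the 9 genes was 1.38 for R5 against R2, with 6 at least 2-fold higher, 0.052 for R3 against R2, with 1 lower, and 0.16 for R4 against R3, with 0 lower. With globins removed these were 1.18 with 5 higher, -0.038 with 1 lower, and -0.033 with 0 lower. R5 against R4 kept 6 higher and 0 lower under both. With a pseudocount of 5 RPKM the medians were -0.33 for R3 against R2, with 0 higher and 1 lower, and 0.54 for R5 against R4, with 1 higher, and R4 against R3 had 0 lower. With a pseudocount of 0.1 RPKM the R5 to R4 median was 1.91, and R4 against R3 had 4 lower. With the filter of 5 RPKM the medians were 0.51 for R5 against R2 and -0.0074 for R3 against R2, with 1 lower, and R5 against R4 had 3 higher. No filter changed none of these values. Shares over all genes for both scalings stand with each comparison above, and none was computed for the other pseudocounts and filters. Of the 36 gene values, the sign turned in 11 after median scaling, in 9 after the globins were removed, and in 0 under either other pseudocount. No ratio of at least 2-fold changed sign under these alternatives. Low reads, about 30 for Ppbp in R4, limit the precision.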
